A study of Mus musculus with 6 samples.

Results

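The homeostatic stromal chemokines examined here are Ccl19, Ccl21a, Cxcl12, Cxcl13, Cxcl14 and Cxcl16, together with the receptors Ackr3 and Ccr7. They were taken by symbol from the gene annotation of the count matrices, which gave 8 symbols carried by 10 gene IDs out of 31053 genes. Ccl19 and Ccl21a each have a pair of IDs, which were summed. ENSMUSG00000071005 held 19120 UMIs (unique molecular identifiers, 1 per captured transcript) of Ccl19 and ENSMUSG00000094661 held 0, while ENSMUSG00000094686 held 76943 UMIs of Ccl21a and ENSMUSG00000095320 held 7. The annotation also lists the near-identical copies Ccl21b, with 0 UMIs under either of its IDs, and Ccl21c, with 19 and 0, so the split of reads between Ccl21 copies is uncertain.

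The study sorted live single cells from enzymatically digested mouse mitral valves after red cell lysis and made droplet-based single-cell RNA-seq libraries. In K/B.g7 mice the KRN transgene, a T cell receptor, is combined with the MHC class II molecule Ag7, and the labels call their valves inflamed. B.g7 control mice carry Ag7 without the transgene, so Ag7 is shared by both groups. Each genotype was sampled at 3, 8 and 25 weeks of age with 1 library per genotype and age, and how many mice went into a library is not given in the sources used here. A comparison at a single age is therefore a comparison of 2 libraries with no replicate check, and the ages serve as the only replicates of genotype.

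Homeostatic chemokines are made by resident stromal and endothelial cells without an infection and place lymphocytes and dendritic cells in tissues. Ccl19 and Ccl21a are the ligands of Ccr7, the receptor that leads naive T cells, B cells and mature dendritic cells to lymphatic vessels and lymph nodes. Cxcl12 signals through Cxcr4 and is taken up by the scavenging receptor Ackr3, Cxcl13 attracts B cells through Cxcr5, and Cxcl16 is a membrane-bound ligand of Cxcr6 on T cells. Cxcl14 is made by fibroblasts and epithelium. Ccl19, Ccl21 and Cxcl13 are also the chemokines of fibroblastic reticular cells, and lymphotoxin receptor signalling through the alternative NF-kappa B pathway is known to induce them.

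The deposited matrices held 58351 barcodes and 243691001 UMIs, from 15196750 UMIs in the B.g7 library at 3 weeks to 69152541 in the K/B.g7 library at 25 weeks. After filtering and removal of predicted doublets 48323 cells were used, 3660 to 16902 per library, with library medians of 2776 to 5526 UMIs per cell, and any 2 libraries shared 3 to 66 barcodes. Clusters were named from marker genes, with the 8 members kept out of the genes used for clustering. Fibroblast-like cells made up 36977 cells (76.5%), endothelial-like cells 3047 (6.31%), mural-like cells (pericytes and smooth muscle) 2108 (4.36%), mesothelial-like cells 1348, T cell-like cells 1000, macrophage-like cells 720 and lymphatic endothelial-like cells 691, and 1517 cells stayed unnamed. Levels below are CPM, the UMIs of a gene per 1000000 UMIs of all genes in the cells of a class or cluster in a library. The fibroblast-like, endothelial-like, mural-like, macrophage-like, T cell-like and B cell-like classes are mixtures of clusters, and their makeup differs between libraries. The largest fibroblast-like cluster was led by Eln and Rbp4 in both libraries at 3 weeks, by Hsd11b1 and Ifi205 in K/B.g7 at 8 and 25 weeks, by Igfbp3 and Apoe in B.g7 at 8 weeks and by Wif1 and Dkk3 in B.g7 at 25 weeks.

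Promoters of 6 of the 8 members were found in the RefSeq set (Cxcl16 and Ccr7 were not matched). The windows of Cxcl13 and Cxcl14 are printed because these members had the highest ratios between the genotypes at 8 weeks in fibroblast-like cells. Each window is the 250 bases before the RefSeq start in GRCm38.p6, read 5′ to 3′ on the gene's strand, chr5:95956689-95956938 on the plus strand for Cxcl13 and chr13:56296552-56296801 on the minus strand for Cxcl14. The first capitals in Cxcl13 mark an element of the alternative NF-kappa B pathway, 114 to 105 bases before the start, and the second a TATAAA box, 46 to 41 bases before it. The first capitals in Cxcl14 mark a match to the STAT motif TTCNNNGAA, 191 to 183 bases before the start, and the second a match on the opposite strand to the interferon-stimulated response element (ISRE), 172 to 163 bases before it.
Cxcl13: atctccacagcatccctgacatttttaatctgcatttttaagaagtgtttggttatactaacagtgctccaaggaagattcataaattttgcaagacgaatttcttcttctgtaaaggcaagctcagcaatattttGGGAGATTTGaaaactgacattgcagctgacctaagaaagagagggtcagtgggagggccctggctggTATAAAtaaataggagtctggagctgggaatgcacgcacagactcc
Cxcl14: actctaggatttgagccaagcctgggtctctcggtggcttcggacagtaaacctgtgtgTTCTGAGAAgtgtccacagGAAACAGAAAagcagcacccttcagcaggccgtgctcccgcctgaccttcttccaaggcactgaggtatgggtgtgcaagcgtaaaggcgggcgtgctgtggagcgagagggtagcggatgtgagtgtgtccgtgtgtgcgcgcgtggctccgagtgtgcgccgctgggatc
All motifs but TATAAA were searched on both strands. The alternative element was present in 23 of 32851 RefSeq windows (0.07%), TATAAA on the gene's strand in 7.59%, the STAT motif in 7.02% and the ISRE in 2.98%. The general kappa B consensus, present in 7.25% of windows, was in none of the 6 member windows. The other matches were TATAAA in Ackr3, 8 to 3 bases before the start, and the ISRE on the opposite strand in Ccl19, 208 to 199 bases before it. The Ccl19 match lies in transcribed sequence by GENCODE, which places 212 of the 250 bases of that window in exons. A match is a stretch of letters, and factor binding was not measured.

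The members divided the valve between them. Of the UMIs in cells used, 96.1% of Ccl21a came from lymphatic endothelial-like cells, whereas 95.9% of Ccl19, 97.0% of Cxcl14 and 88.5% of Cxcl12 came from fibroblast-like cells. Cxcl13 came from fibroblast-like cells (66.2%) and macrophage-like cells (27.6%). These shares include the size of each class, so the level per class is given next.

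Classes were ranked where at least 4 libraries held 20 cells or more, which leaves out dendritic-like cells. Averaged over libraries, Ccl19 was highest in fibroblast-like cells, at 85.7 ± 57.8 CPM (SD, n = 6 libraries), ahead of mural-like cells at 33.5 ± 21.7 CPM. Cxcl16 was highest among the ranked classes in macrophage-like cells at 386 ± 202 CPM, ahead of endothelial-like cells at 129 ± 22.8 CPM. Both orders held in all 6 libraries (log2 gap 1.29 ± 0.73 for Ccl19 and 1.45 ± 0.51 for Cxcl16; exact sign-flip permutation test, two-sided, p = 0.03125, the smallest that 6 libraries allow, and 0.125 after Benjamini-Hochberg adjustment over the 8 members). Ackr3 was highest in lymphatic endothelial-like cells at 450 ± 104 CPM, followed by endothelial-like cells at 293 ± 38.6 CPM and fibroblast-like cells at 181 ± 44.7 CPM. The lymphatic endothelial-like level was the higher of the first pair in 5 of 6 libraries, which did not pass the test (exact permutation p = 0.09375, adjusted 0.25). For Cxcl12 the mural-like level of 157 ± 52.1 CPM and the fibroblast-like level of 130 ± 33.0 CPM did not differ beyond their spread, with the mural-like level higher in 4 of 6 libraries (exact permutation p = 0.34375). Cxcl14 was higher in fibroblast-like than in macrophage-like cells in 5 of 6 libraries, at 201 ± 237 against 48.0 ± 37.9 CPM (exact permutation p = 0.15625). The order of macrophage-like and fibroblast-like cells for Cxcl13 split 3 to 3 (exact permutation p = 0.71875).

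**Figure D1:**
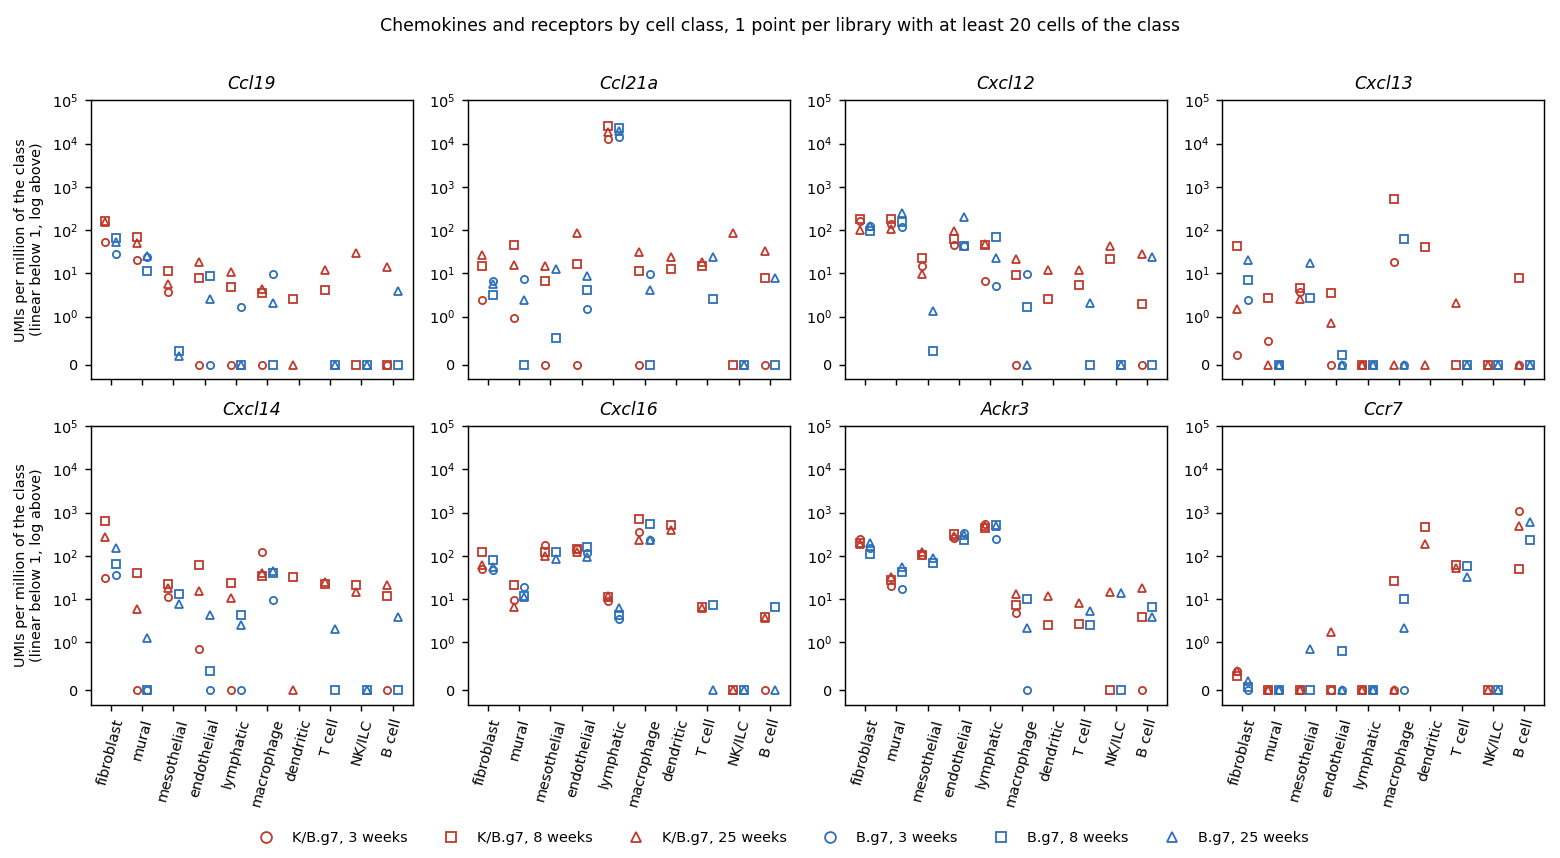
Level of each member in CPM of the class (vertical axis, linear below 1 and logarithmic above) by cell class, with 1 point per library holding at least 20 cells of the class; red marks K/B.g7, blue marks B.g7, and circles, squares and triangles mark 3, 8 and 25 weeks. Ccl21a lies above 10000 CPM in lymphatic endothelial-like cells of every library, while, of the classes shown, Ccl19 is highest in fibroblast-like cells of all 6 libraries and Cxcl14 in 5 of 6, and Ccr7 is seen mainly in B cell-like, dendritic-like and T cell-like cells.

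Ccl19, one of the ligands of Ccr7, was higher in the fibroblast-like cells of K/B.g7 than of B.g7 valves at each age. Its level was 53.8, 162.0 and 155.2 CPM for the ages of 3, 8 and 25 weeks in K/B.g7 and 27.2, 63.96 and 51.9 CPM in B.g7. The 2 adult K/B.g7 libraries were the highest of the 6, and the groups overlapped only in that K/B.g7 at 3 weeks lay below B.g7 at 8 weeks. The ratio was 1.98 at 3 weeks (95% counting interval 1.74 to 2.26), 2.53 at 8 weeks (2.37 to 2.71) and 2.99 at 25 weeks (2.84 to 3.15). Counting intervals cover counting error only and not the variation between mice. With age as a block, the log2 fold change was 1.23 ± 0.17 (SE) and the p of 5.01e-05 became an FDR of 0.0949 over 14387 genes (edgeR quasi-likelihood test, Benjamini-Hochberg), which missed the 0.05 threshold. At that threshold edgeR called 0 of 14387 genes for genotype in these cells (0%), with 964 genes at an unadjusted p under 0.05, and DESeq2 called 42, Ccl19 among them (FDR 1.80e-07). The edgeR FDR of Ccl19 was 0.0212 without the 8-week libraries, 0.0602 without the 3-week and 0.241 without the 25-week libraries, and without the block edgeR called 0 genes. Without the cluster led by Mmp3 and Lcn2, described next, the fold change was 0.83 with an FDR of 0.493.

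The Ccl19 difference was also present inside the fibroblast-like clusters, which are finer groups than the class. Clusters were compared at an age where each library held at least 20 cells and both together held at least 10 UMIs of the gene. At 25 weeks K/B.g7 was higher in 10 of 10 such clusters, by 2.49 to 9.15 times, and every counting interval excluded 1. In cluster 4 (Mt1, Inmt) it was 332 against 71.6 CPM, and in cluster 0 (Wif1, Dkk3) 292 against 94.0 CPM. At 8 weeks the K/B.g7 level was the higher in 8 of 8 clusters, 1 of which had 0 UMIs in B.g7 and so qualified through its K/B.g7 UMIs alone. Only 4 intervals at that age excluded 1, and the lowest ratio was 1.004. At 3 weeks the ratio was 1.36 to 4.27 over 5 clusters. Cluster 2 at 8 weeks and clusters 3 and 5 at 3 weeks had enough cells but too few Ccl19 UMIs to be compared. The highest Ccl19 level of any cluster was 787 CPM in cluster 19, which was led by the matrix metalloproteinase Mmp3 and the lipocalin Lcn2. Of its cells 96.7% came from the K/B.g7 library at 8 weeks, so the cluster and that library cannot be told apart.

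**Figure D2:**
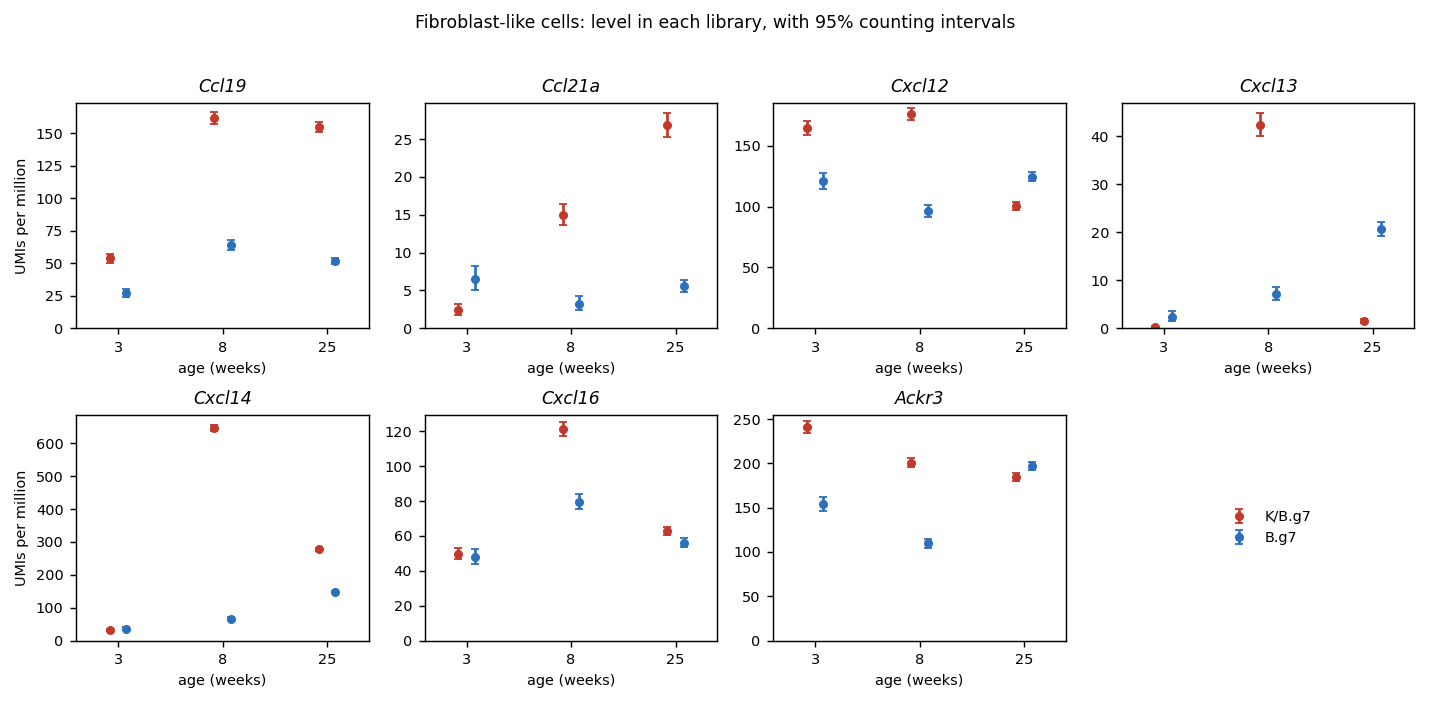
Level of members in fibroblast-like cells of each library, in CPM, with 95% counting intervals, for K/B.g7 and B.g7 at 3, 8 and 25 weeks. Ccl19 is higher in K/B.g7 at each age, at 155.2 against 51.9 CPM at 25 weeks, whereas Cxcl12 and Ackr3 lie higher in K/B.g7 up to 8 weeks and lower at 25 weeks.

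**Figure D3:**
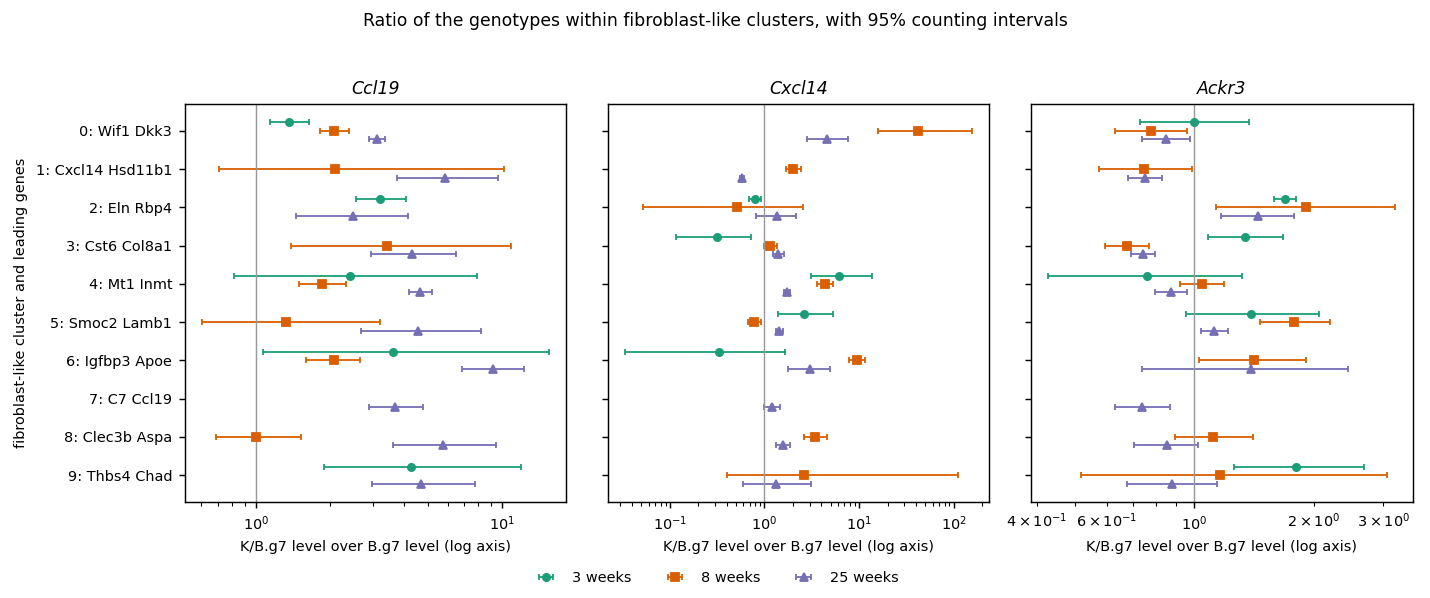
Ratio of the K/B.g7 to the B.g7 level (horizontal axis, logarithmic) of Ccl19, Cxcl14 and Ackr3 within each fibroblast-like cluster with enough cells and UMIs at 3, 8 and 25 weeks, with 95% counting intervals; the vertical line marks a ratio of 1, and ratios with 0 UMIs in a library are not drawn. For Ccl19 no ratio lies below 1 and those at 25 weeks lie between 2.49 and 9.15, whereas the Ackr3 ratios fall on both sides of 1.

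Ccl19 also changed with age in fibroblast-like cells taken as a class. From 3 to 8 weeks it rose by 1.46 ± 0.21 on the log2 scale (edgeR FDR 0.00738), one of 2 members among the 5.91% of genes called (3.34% as higher). From 3 to 25 weeks it rose by 1.23 ± 0.21 (edgeR FDR 0.0392) as the only member among the 1% of genes called (0.633% as higher). Without cluster 19 the first change was 0.86 with an FDR of 0.131, and without the K/B.g7 library at 3 weeks it was 1.30 with an FDR of 0.0855. The second call was lost without the K/B.g7 library at 3 weeks (edgeR FDR 0.361) or at 25 weeks (0.254). The cluster makeup of the class also changed with age, and its part in these changes was not tested. Cluster 2 (Eln, Rbp4) held 59.9% of K/B.g7 and 58.5% of B.g7 fibroblast-like cells at 3 weeks, with Ccl19 at 45.2 and 14.1 CPM. In cluster 0 K/B.g7 held 110, 182 and 292 CPM at 3, 8 and 25 weeks, and B.g7 held 80.7, 87.8 and 94.0 CPM. In cluster 4 they held 56.8, 109 and 332 CPM and 23.6, 58.7 and 71.6 CPM. After thinning every cell to 1000 UMIs, 4.49%, 7.68% and 11.5% of fibroblast-like cells for the ages of 3, 8 and 25 weeks in K/B.g7 had a UMI of Ccl19, against 2.80%, 5.47% and 4.25% in B.g7. Unthinned, the shares were 13.0%, 21.3% and 21.8% against 7.39%, 18.0% and 17.4%, and the median depth of these cells ranged from 2830 to 5715 UMIs. The thinned share in macrophage-like cells, taken as a class that should lack Ccl19, was at most 1.04%. Over the 3 libraries a genotype the thinned share was 7.89% ± 3.51 against 4.17% ± 1.34 (SD, n = 3; exact permutation test, two-sided, p = 0.2, where 0.1 is the smallest possible).

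Outside fibroblast-like cells Ccl19 was lower. Mural-like cells held 20.3, 68.9 and 50.4 CPM in K/B.g7 and 24.1, 11.5 and 25.8 CPM in B.g7, and the difference did not pass the test (log2 0.89 ± 0.37, edgeR FDR 0.289). No member was called in mural-like cells for genotype, where 1.87% of genes were, from 3 to 8 weeks (1.82%) or from 3 to 25 weeks (0.221%). In the mural-like cells the summed level of 8 fibroblast markers was 18.2% to 20.1% of its fibroblast-like level in K/B.g7 and 6.35% to 14.4% in B.g7, and its part in the Ccl19 values was not tested. Mesothelial-like cells at 8 and 25 weeks held 11.2 and 5.56 CPM in K/B.g7, from 5 and 11 UMIs, against 0.274 and 0.171 CPM in B.g7, from 1 UMI each (edgeR FDR 0.212, where 0.0367% of genes were called and no member).

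Ccl21a, the other ligand of Ccr7, was the most abundant member in any class. Lymphatic endothelial-like cells held 12723, 25613 and 18742 CPM for the ages of 3, 8 and 25 weeks in K/B.g7 and 13903, 23342 and 19044 CPM in B.g7. The 3-week libraries were the lowest of both genotypes, and at 8 weeks the K/B.g7 level was 1.10 times the B.g7 level. The genotype difference was -0.01 ± 0.17 on the log2 scale, and no member was called in these cells, where 0.17% of genes were. From 3 to 8 weeks Ccl21a rose by 0.98 ± 0.21 (edgeR FDR 0.00796, where 3.29% of genes were called and 2.19% as higher), a call that was lost without either 8-week library (FDR 0.602 and 0.297). The cluster was led, beside Ccl21a, by the lymphatic genes Mmrn1, Lyve1, Flt4, Reln and Prox1.

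Ccl21a was also counted at low levels elsewhere. Lymphatic endothelial-like cells held 92.4% to 99.2% of its UMIs in each library, and its level in the other cells was 0.012% to 0.158% of the lymphatic level. By the same measure the lymphatic genes Mmrn1, Reln and Flt4 stood at 0.007% to 0.115%, 0.0761% to 0.635% and 0.203% to 1.42% outside. Fibroblast-like cells held 2.38, 14.98 and 26.8 CPM in K/B.g7 and 6.47, 3.21 and 5.56 CPM in B.g7, so K/B.g7 was the lower at 3 weeks and the higher later (log2 1.17 ± 0.60, edgeR FDR 0.778; 2.15 with an FDR of 0.0133 without the 3-week libraries). Few cells carried much of these counts, with 27 of 47 UMIs in 1 cell of K/B.g7 at 3 weeks, 48.3% in 26 of 13351 cells of K/B.g7 at 25 weeks, where 1 cell held 87 UMIs, and 61.5% in 2 cells of B.g7 at 8 weeks. The summed level of 5 lymphatic markers in the same cells was 10.1 to 16.9 CPM in K/B.g7 and 10.5 to 11.1 CPM in B.g7, with none of the 5 at 0 in any library, and its part in the Ccl21a values was not tested. In endothelial-like cells Ccl21a was 0, 16.4 and 86.3 CPM in K/B.g7 and 1.51, 4.13 and 8.49 CPM in B.g7, and 1 cell held 130 of the 200 UMIs in K/B.g7 at 25 weeks (edgeR FDR 0.0637 for genotype).

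Ccr7, the receptor of both ligands, lay in leukocytes. B cell-like cells held 1095, 49.3 and 481 CPM for the ages of 3, 8 and 25 weeks in K/B.g7 and 238 and 595 CPM in B.g7 at 8 and 25 weeks. A UMI was found in 61.9%, 23.4% and 45.6% of these cells in K/B.g7 and in 57.1% and 63.6% in B.g7. The first level rests on 24 UMIs in 21 cells with 21909 UMIs of all genes, the second on 77 cells with 506947. The class includes 19 cells led by Igkc and Ighg1, at 5.78 times the median depth of their libraries. The part of such deep cells in the Ccr7 levels was not tested. T cell-like cells held 62.8 and 52.5 CPM in K/B.g7 and 57.1 and 32.3 CPM in B.g7 at 8 and 25 weeks, a difference of 0.36 ± 0.34 on the log2 scale. In that class 0 of 6639 genes (0%) passed for genotype with edgeR, with 461 at an unadjusted p under 0.05 and 1 called by DESeq2. The largest T cell-like cluster was led by Ccl5 and Nkg7 at 8 weeks and by Cd8b1, Rag1 and Dntt, genes of thymocytes, at 25 weeks. Dendritic-like cells in K/B.g7 held 457 CPM at 8 weeks, with a UMI in 21 of 67 cells, and 193 CPM at 25 weeks, while the B.g7 libraries had too few of these cells for a level. In fibroblast-like cells Ccr7 was at most 0.408 CPM.

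Cxcl12 was spread over stromal and endothelial cells. Fibroblast-like cells held 164, 176 and 100 CPM in K/B.g7 and 121, 96.0 and 125 CPM in B.g7. The K/B.g7 level was 1.36 times the B.g7 level at 3 weeks and 1.83 times at 8 weeks, then 0.804 times at 25 weeks, so the groups overlapped (log2 0.26 ± 0.24, edgeR FDR 0.878). Within clusters the K/B.g7 level was the higher in 7 of 7 at 3 weeks, by 1.25 to 2.22 times, in 5 of 9 at 8 weeks and in 3 of 10 at 25 weeks.

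The highest cluster for Cxcl12 was the mural-like cluster led by Rgs5, a gene of pericytes, at 475 CPM, ahead of the Mmp3 and Lcn2 fibroblast-like cluster at 376 CPM. The mural-like class held 141, 178 and 104 CPM in K/B.g7 and 117, 153 and 249 CPM in B.g7 (log2 -0.31 ± 0.30). The Rgs5 cluster was the largest of the class in the 8-week K/B.g7 library and the 25-week B.g7 library, and the cluster of the smooth muscle genes Acta2 and Myh11 in the other libraries. Endothelial-like cells held 43.9, 60.9 and 96.7 CPM in K/B.g7 and 42.3, 43.0 and 196 CPM in B.g7, and most of their cells lay in the Flt1 cluster except in B.g7 at 8 weeks, where the Npr3 and Vwf cluster held 84.6%. In the Flt1 cluster alone Cxcl12 was 50.1, 78.1 and 142 CPM in K/B.g7 and 46.9, 94.7 and 218 CPM in B.g7, and in the Npr3 cluster it was at most 31.0 CPM. The value of B.g7 at 25 weeks was the highest of the 6 libraries in both the mural-like class and the Flt1 endothelial-like cluster.

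In lymphatic endothelial-like cells Cxcl12 was 6.64, 44.5 and 48.3 CPM in K/B.g7 and 5.08, 69.3 and 22.6 CPM in B.g7, from 3 to 46 UMIs a library. Both 3-week libraries lay below all the others. It rose by 3.22 ± 0.59 on the log2 scale from 3 to 8 weeks (edgeR FDR 0.00177) and by 2.59 ± 0.57 from 3 to 25 weeks (edgeR FDR 0.0139, where 2.95% of genes were called and 1.92% as higher), the second call being lost without the K/B.g7 library at 25 weeks (1.79, FDR 0.330). Against the fibroblast-like level these values were 4.04% and 4.19% at 3 weeks and 18.1% to 72.2% later. The 8 fibroblast markers in the same cells summed to 306 to 1474 CPM in K/B.g7 and 230 to 850 CPM in B.g7, which was 0.820% to 5.83% of their fibroblast-like level. At 3 weeks Cxcl12 rested on 3 UMIs a library, with counting intervals of 1.37 to 19.4 CPM in K/B.g7 and 1.05 to 14.8 CPM in B.g7. The part of fibroblast transcripts in the Cxcl12 values was not tested.

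Ackr3, which scavenges Cxcl12, was highest in lymphatic and blood endothelial-like cells and also present in fibroblast-like cells. Lymphatic endothelial-like cells held 531, 429 and 490 CPM in K/B.g7 and 249, 507 and 496 CPM in B.g7, and endothelial-like cells held 264, 320 and 290 CPM and 340, 235 and 311 CPM. Neither class separated the genotypes (lymphatic log2 0.27 ± 0.24). In fibroblast-like cells it was 241, 201 and 184 CPM in K/B.g7 and 154, 110 and 197 CPM in B.g7, that is 1.56 times higher in K/B.g7 at 3 weeks, 1.83 times at 8 weeks and 0.938 times at 25 weeks (log2 0.40 ± 0.23, edgeR FDR 0.808). Within clusters the K/B.g7 level was the higher in 4 of 6 at 3 weeks and in 3 of 10 at 25 weeks. At 8 weeks the K/B.g7 level was the higher in 6 of 9, with 3 counting intervals above 1 and 3 below. Cluster 6 (Igfbp3, Apoe), with 45.3% of the B.g7 class at 8 weeks, held 60.5 CPM there. The part of cluster makeup in the class levels and shares was not tested. The thinned share of fibroblast-like cells with a UMI of Ackr3 was 16.8%, 16.3% and 14.3% in K/B.g7 and 13.2%, 8.03% and 14.1% in B.g7 (unthinned 40.7%, 41.7% and 29.998% against 29.0%, 24.4% and 40.7%). The 3 K/B.g7 shares lay above the 3 B.g7 shares (exact permutation p = 0.1, the smallest possible with 3 against 3), and macrophage-like cells stood at no more than 1.20%.

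The signalling receptor Cxcr4 was a leukocyte gene in these valves, at 724 ± 478 CPM in B cell-like and 328 ± 246 CPM in macrophage-like cells. NK or innate lymphoid-like cells held 172 and 818 CPM in K/B.g7 and 250 and 817 CPM in B.g7 at 8 and 25 weeks. Macrophage-like cells held 182, 363 and 782 CPM in K/B.g7 and 66.2, 326 and 250 CPM in B.g7. Fibroblast-like cells held at most 21.4 CPM.

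Within the fibroblast-like class Ackr3 was found together with a ligand in fewer cells than the single shares give for some ligands and not for others. After thinning to 1000 UMIs, cells with both Ccl19 and Ackr3 numbered 0.51 to 0.88 times the product of the single shares, below 1 in 6 of 6 libraries. Cxcl12 with Ackr3 stood at 0.80 to 0.93 times, below 1 in 6 of 6, and Cxcl16 with Ackr3 at 0.756 to 0.996 times, also in 6 of 6. Cxcl14 with Ackr3 stood at 0.844 to 1.36 times, above 1 in 2 of 6, and Ccl21a with Ackr3 at 1.17 to 1.38 times, above 1 in the 3 libraries with enough cells. Several ligand pairs leaned the other way, with Ccl19 and Cxcl12 at a median of 1.42 and Cxcl12 and Cxcl14 at a median of 1.61, each above 1 in 5 of 6 libraries. Ccl19 with Cxcl14 stood below 1, at 0.498 to 0.916 times in the 4 libraries with enough cells. Ccl19 with Ccl21a also did, at 0.310 and 0.931 times in 2 libraries. Ccl21a with Cxcl12, Cxcl14 or Cxcl16 was above 1 in 1 of 2 libraries each. All the ratios are descriptions of cells that share a library, and clusters of different makeup are pooled in them.

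**Figure D4:**
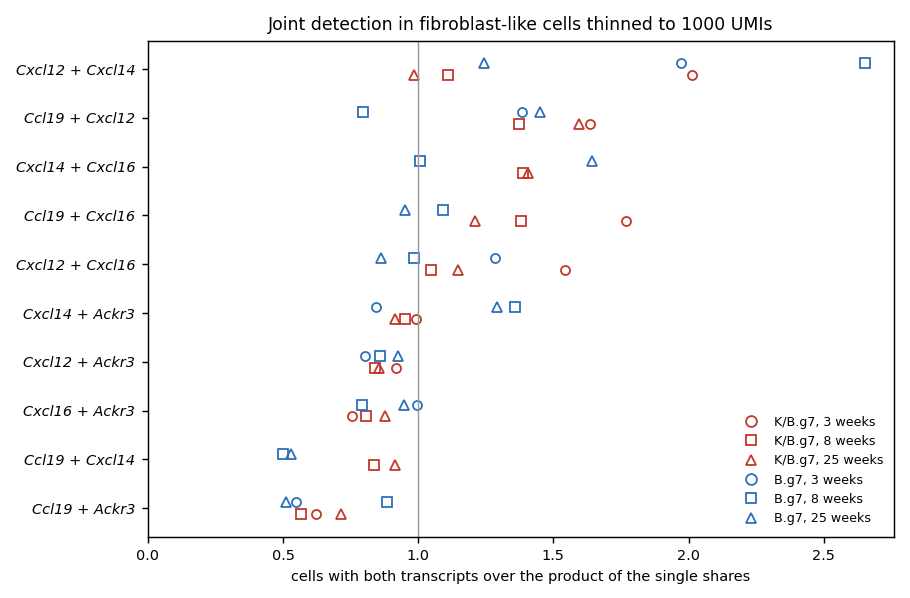
Number of fibroblast-like cells with UMIs of both genes over the number given by the product of the single shares (horizontal axis), for 10 pairs of members after thinning to 1000 UMIs, with 1 point per library; the vertical line marks 1. Ccl19, Cxcl12 and Cxcl16 lie below 1 with Ackr3 in all 6 libraries, and Cxcl12 with Cxcl14 lies above 1 in 5 of 6.

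Cxcl13, the B cell chemokine, was made by very few cells. Of its 3364 UMIs in cells used, 91.7% lay in 71 cells with at least 5 UMIs each, of which 51 were fibroblast-like and 15 macrophage-like. In fibroblast-like cells 140 of 36977 cells had a UMI, 1 cell held 16.4% of the class's UMIs and 10 cells held 60.5%, whereas the 10 highest cells held 4.18% for Ccl19, 3.20% for Cxcl14 and 0.669% for Ackr3. Cxcl13 levels of a class are therefore counts of a few cells.

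**Figure D5:**
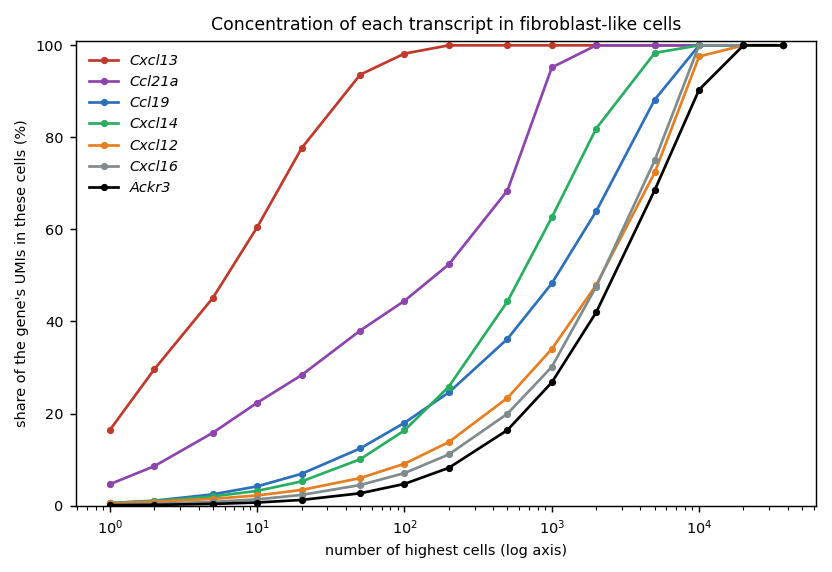
Cumulative percent of a member's UMIs in fibroblast-like cells (vertical axis) against the number of cells taken from the highest down (horizontal axis, logarithmic). The Cxcl13 curve passes 60.5% at 10 cells, where the Ccl19 curve stands at 4.18%.

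The fibroblast-like level of Cxcl13 was 0.203, 42.4 and 1.53 CPM in K/B.g7 and 2.44, 7.09 and 20.7 CPM in B.g7. It was high in the 8-week K/B.g7 library and the 25-week B.g7 library, so the direction differed between ages (log2 -1.25 ± 1.32, edgeR FDR 0.891; 1.05 without the 25-week libraries and -3.82 without the 8-week libraries). In K/B.g7 at 8 weeks 1 cell held 366 of 1269 UMIs, in K/B.g7 at 25 weeks 1 cell held all 60, in B.g7 at 8 weeks 1 cell held 114 of 115, and in B.g7 at 25 weeks 62 cells shared 753. Cluster 23, led by Sult1e1 and Tnfaip6, held 34.5% of the fibroblast-like UMIs and 88.7% of its cells came from B.g7 at 25 weeks, and the Mmp3 and Lcn2 cluster held 54.6%. Each of these clusters is nearly all of 1 library, and cluster and library cannot be told apart.

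The 51 fibroblast-like cells with at least 5 UMIs of Cxcl13 carried the genes of fibroblasts, with Col3a1 in 100% of them against 96.4% of the other fibroblast-like cells. A UMI of Tnfsf11, the cytokine RANKL, was found in 11 of them, or 21.6% against 0.203% of the others. The same shares were compared for Pdpn (70.6% against 23.6%), Vcam1 (68.6% against 35.1%), Icam1 (60.8% against 27.7%), the lymphotoxin receptor Ltbr (37.3% against 9.51%) and Ccl19 (66.7% against 18.3%). Cr2 of follicular dendritic cells and Madcam1 of marginal reticular cells were at 0, and the leukocyte gene Ptprc and the macrophage gene C1qa had a UMI in 1 cell each. Mmp3, a leading gene of cluster 19, was found in 35.3% against 4.89%. Of the 51 cells, 18 came from the K/B.g7 library at 8 weeks and 29 from the B.g7 library at 25 weeks, while the others compared came from all libraries. The median depth of the 51 cells was 9853 UMIs against 3661. The part of depth, library and cluster in these shares was not tested.

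In macrophage-like cells Cxcl13 was 18.6, 509 and 0 CPM in K/B.g7 and 0, 62.3 and 0 CPM in B.g7 at 3, 8 and 25 weeks. The 8-week library was the highest of either genotype, and the K/B.g7 level there was 8.17 times the B.g7 level (counting interval 5.90 to 11.6). Of the 38 UMIs in B.g7 at 8 weeks, 31 lay in 1 cell, and the interval does not cover such differences between cells. It passed the genotype test with an edgeR FDR of 0.00814 (log2 2.97 ± 0.44), where 0.3% of genes were called (0.235% as higher), and rose from 3 to 8 weeks (edgeR FDR 8.93e-05), where 6.57% were (4.41% as higher). Without the K/B.g7 library at 8 weeks the age call was lost (5.42, edgeR FDR 0.239). No member was called from 3 to 25 weeks, where 1.31% of genes were. The genotype call rests on the 8-week libraries, since both 25-week libraries had 0 UMIs and the 3-week libraries had 4 and 0, and DESeq2 gave an FDR of 0.573. Of 885 UMIs in K/B.g7 at 8 weeks, 342 lay in 1 cell and 81.9% in 5, with a UMI in 26 of 311 cells against 6 of 90 cells in B.g7. The C1q macrophage cluster held 99.4% of the macrophage-like UMIs, at 2247 against 180 CPM at 8 weeks. All 15 macrophage-like cells with at least 5 UMIs had C1qa, against 51.8% of the others, at a median depth of 6219 against 3483 UMIs. Its receptor Cxcr5 was highest in B cell-like cells, at no more than 59.1 CPM.

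Cxcl14, a fibroblast chemokine, had a far higher level in 1 library than in the others. In fibroblast-like cells it stood at 31.3, 646 and 277 CPM in K/B.g7 and 35.9, 66.2 and 148 CPM in B.g7. The 3-week libraries were the lowest pair, at a ratio of 0.871 (counting interval 0.765 to 0.992), while K/B.g7 was 9.77 times higher at 8 weeks (counting interval 9.18 to 10.4) and 1.88 times higher at 25 weeks (1.81 to 1.94), and the B.g7 level at 25 weeks lay between the K/B.g7 levels at 3 and 25 weeks. Genotype did not pass (log2 1.23 ± 0.55, edgeR FDR 0.747), and neither did the change from 3 to 8 weeks (2.85 ± 0.70, edgeR FDR 0.0507). After thinning, 1.82%, 19.6% and 12.6% of K/B.g7 and 3.04%, 3.56% and 6.43% of B.g7 fibroblast-like cells had a UMI, from unthinned shares of 3.67%, 29.9% and 18.5% and of 5.26%, 5.59% and 11.6%. The thinned share in T cell-like cells was 0% to 2.42%. In the same fibroblast-like cells 4 erythroid markers summed to 289, 563 and 313 CPM in K/B.g7 and 386, 27.3 and 159 CPM in B.g7, with 0 or 1 of them at 0, which is also lower in K/B.g7 at 3 weeks and higher later. The 8 macrophage markers summed to 6.39, 24.3 and 10.4 CPM and to 7.60, 10.2 and 7.32 CPM, again with 0 or 1 at 0. The part of these transcripts in the genotype differences of Cxcl14 and the other members in fibroblast-like cells was not tested.

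Within the class Cxcl14 was highest in a single cluster. Cluster 1, led besides Cxcl14 by the steroid dehydrogenase Hsd11b1 and by Ifi205, held 56.7% of the fibroblast-like Cxcl14 UMIs at 1051 CPM. It made up 1901 fibroblast-like cells of K/B.g7 and 55 of B.g7 at 8 weeks, and 3930 and 369 at 25 weeks. Inside it Cxcl14 was 1560 against 772 CPM at 8 weeks, 2.02 times higher in K/B.g7, and 648 against 1121 CPM at 25 weeks, 0.578 times. Over the clusters compared the K/B.g7 level was the higher in 2 of 5 at 3 weeks, 7 of 9 at 8 weeks and 9 of 10 at 25 weeks, with ratios of 0.508 to 41.8 at 8 weeks. Cell numbers of clusters were set by clustering and differ between single libraries.

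In endothelial-like cells Cxcl14 was 0.861, 59.8 and 15.1 CPM in K/B.g7 and 0, 0.413 and 4.24 CPM in B.g7. It passed the genotype test (edgeR FDR 0.0487, where 0.0994% of genes were called, all as higher) and the test of 8 against 3 weeks (edgeR FDR 0.0397, where 1.63% were called and 1.02% as higher), both close to the threshold. The counts were 1, 102 and 35 UMIs in K/B.g7 and 0, 2 and 5 in B.g7. Cxcl14 thus passed the expression filter only through K/B.g7 libraries, where it was high, so the genotype call is not independent of that filter. Among cells of at least 1000 UMIs the edgeR FDRs were 0.0805 and 0.0573, and DESeq2 made neither call. The K/B.g7 library at 8 weeks had 102 UMIs in 33 of 457 cells, 66.7% of them in 5 cells, and without it the age difference was 1.17 in place of 5.67 on the log2 scale. The level was similar in the Npr3 and the Flt1 cluster of that library, at 55.9 and 61.9 CPM, against 0.532 and 0 CPM in B.g7 at 8 weeks.

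The same endothelial-like cells held RNA of other cell types. The 8 fibroblast markers summed to 3850 to 4559 CPM in K/B.g7 and 2838 to 3344 CPM in B.g7, with none at 0. As a share of the fibroblast-like level that was 10.6%, 18.8% and 15.2% in K/B.g7 and 9.81%, 12.1% and 11.9% in B.g7, and Cxcl14 stood at 2.75%, 9.24% and 5.45% and at 0%, 0.624% and 2.87%, below the marker share in each library. In K/B.g7 at 8 weeks the 33 cells with a UMI of Cxcl14 held the fibroblast markers at 25.3% of the fibroblast-like level and the other 424 cells at 18.2%. Erythroid markers summed to 366 to 2896 CPM in K/B.g7 and 16.1 to 32.2 CPM in B.g7, with 0 to 2 of the 4 at 0. The part of these transcripts in the Cxcl14 difference was not tested. In macrophage-like cells Cxcl14 was 121, 35.1 and 39.1 CPM in K/B.g7 and 9.46, 39.3 and 44.1 CPM in B.g7.

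Cxcl16, the ligand of Cxcr6, was highest in myeloid cells. Macrophage-like cells held 354, 721 and 234 CPM in K/B.g7 and 236, 536 and 237 CPM in B.g7, highest at 8 weeks in both genotypes. It rose from 3 to 8 weeks by 1.23 ± 0.32 on the log2 scale (edgeR FDR 0.0278), a call that each of the 4 libraries decided (FDR 0.0901 to 0.307 without one). Dendritic-like cells, which were not ranked, held 503 and 385 CPM at 8 and 25 weeks in K/B.g7, the second value above that of macrophage-like cells. Endothelial-like cells held 141, 143 and 120 CPM in K/B.g7 and 116, 158 and 95.05 CPM in B.g7.

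Fibroblast-like cells held less Cxcl16, at 49.8, 121 and 62.9 CPM in K/B.g7 and 48.0, 79.8 and 56.1 CPM in B.g7. Both genotypes again peaked at 8 weeks. The rise from 3 to 8 weeks was 1.06 ± 0.21 (edgeR FDR 0.0229) and was lost without the K/B.g7 library at 3 weeks (FDR 0.171) or at 8 weeks (0.82, FDR 0.241). The genotype ratio was 1.04 at 3 weeks (0.931 to 1.16), 1.52 at 8 weeks (1.43 to 1.62) and 1.12 at 25 weeks (1.06 to 1.19). Within clusters the K/B.g7 level was the higher in 6 of 7 at 3 weeks and in 4 of 10 at 25 weeks. At 8 weeks the K/B.g7 level was the higher in 5 of 9, with 1 counting interval above 1 and 2 below. The part of cluster makeup in the class ratios was not tested. Cxcr6 was highest in T cell-like cells, at 529 and 119 CPM in K/B.g7 and 455 and 133 CPM in B.g7 at 8 and 25 weeks, so both ligand in macrophage-like cells and receptor in T cell-like cells were higher at 8 than at 25 weeks in either genotype. That joint order was not tested. The makeup of the T cell-like class also differed between these ages in either genotype. Its largest cluster was led by Ccl5 and Nkg7 at the earlier age and held the thymocyte genes Rag1 and Dntt at the later age. The part of this cluster makeup in the Cxcr6 levels was not tested.

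As a group, 8 of 8 members were tested in fibroblast-like cells and 7 had a fold change above 0 for K/B.g7 over B.g7, where 46.0% of all genes did. Of the 7, Ccr7 rested on 8, 9 and 16 UMIs in K/B.g7 and on 0, 1 and 7 in B.g7 at 3, 8 and 25 weeks. It passed the expression filter only through K/B.g7 libraries, so its direction carries no weight in this count. The median log2 fold change was 0.79 over the members and -0.02 over all genes, and no member passed the threshold. Of the related lists, 0 genes passed for genotype in fibroblast-like cells. The receptors and scavengers of these chemokines had 3 of 3 tested members above 0 (median 0.26), among them Ackr4, the scavenger of Ccl19 and Ccl21a, at 30.4, 39.1 and 34.8 CPM in K/B.g7 and 45.1, 14.4 and 31.4 CPM in B.g7. Genes that cut or present the chemokines had 4 of 5 above 0 (median 0.19), including the Cxcl16 sheddase Adam10 at 0.37 ± 0.18, the peptidase Dpp4 at 0.50 ± 0.45, the gelatinase Mmp2 at 0.19 ± 0.20 and the proteoglycan Sdc4 at -0.17 ± 0.21.

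Lymphoid stroma genes had 7 of 12 above 0 (median 0.17), led by Bst1 at 2.26 ± 0.74, the B cell survival factor Tnfsf13b at 0.56 ± 0.20, the T cell survival factor Il7 at 0.92 ± 0.34 and the alarmin Il33 at 0.37 ± 0.22. The cytokine list had 2 of 3 above 0 (median 0.35), with Il1b at 0.90, the lymphotoxin subunit Ltb at 0.35 and Il6 at -0.03. Other chemokines had 9 of 11 above 0 (median 0.39), with Ccl5, which draws in T cells, at 2.82 ± 0.45 (edgeR FDR 0.190), the eosinophil chemokine Ccl11 at 0.78 ± 0.41, the interferon-gamma-induced Cxcl9 at 1.01 ± 0.64 and the neutrophil chemokine Cxcl1 at -0.49 ± 0.26. Il1b, Ltb and Ccl5 were also among the leading genes of leukocyte clusters. The part of leukocyte RNA in these fibroblast-like fold changes was not tested.

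The genes whose levels ran most like a member differed from member to member. Over 51 sums of fibroblast-like clusters by library, Ccl19 ran closest to Maob (Pearson r 0.82), the complement gene C4b (0.75) and the potassium channel subunit Abcc9 (0.72), and Cxcl14 closest to Ms4a4d (0.88), the sodium channel gene Scn7a (0.85) and Cd302 (0.85). Over 53 sums of named classes by library, Ccl21a ran with Mmrn1 (0.98), Reln (0.96) and Clca3a1 (0.93), Cxcl12 with Ly6c1 (0.90), Sod3 (0.86) and Ctgf (0.86), and Ackr3 with Wwtr1 (0.93), Amotl1 (0.92) and Lama4 (0.92). By the same measure Cxcl13 ran with Ccl8 (0.81), Cxcl9 (0.78) and Ms4a6d (0.61), Cxcl16 with Naaa (0.93), Myof (0.83) and Eps8 (0.82), and Ccr7 with the MHC class II genes H2-Ob (0.90) and H2-DMb2 (0.84) and with Gm8369 (0.82). These points share libraries and depth, and the correlations carry no test.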

How the data were processed

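Single-cell counts of mitral valve cells were analysed. Per the submitters' processing notes, the authors made the deposited count matrices (whole UMI counts per gene and barcode) with Cell Ranger 3.1.0 on mm10. Of the barcodes, 53526 passed filters of at least 500 UMIs, at least 300 genes and a mitochondrial share up to 10%, and 5203 predicted doublets were left out (Scrublet-type score, expected rate 0.8% per 1000 barcodes, computed with scikit-learn 1.9.0). Cells were clustered with scanpy 1.11.5 and leidenalg 0.10.2 (2000 variable genes without the members, 30 components, 15 neighbours, resolution 1). Clusters with Ptprc in at least 25% of cells were clustered again, and 46 clusters resulted. A name required at least 3 detected markers of a class and a margin of 0.25 over the next class; 7 clusters stayed unnamed, and these naming thresholds were set after the data were seen.

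UMIs were summed per class and library with at least 20 cells and fitted with edgeR 4.0.16 (TMM, filterByExpr, quasi-likelihood F test, genotype plus age as a block, FDR threshold 0.05). T cell-like and mesothelial-like cells were fitted on 8 and 25 weeks, and dendritic-like cells were not fitted. DESeq2 1.42.0, no filter, no block, doublets kept, at least 1000 UMIs and left-out libraries or ages were alternatives. The block comes from the age label: after removing group means, libraries of one age correlated at 0.240 to 0.592 in fibroblast-like cells. On simulated fibroblast-like counts 55% of 2-fold and 89% of 4-fold changes were recovered. Ratios of 2 libraries have exact 95% conditional intervals. Ratios within clusters required at least 20 cells in each library and at least 10 UMIs of the gene over both. Cells under 1000 UMIs (2927) were left out of thinned shares. Joint detection required a product of at least 5 cells. Fold changes of genes with 0 UMIs in a group depend on the prior count and are not bounds. Likeness used log2(CPM + 10) over sums of at least 50 fibroblast-like or 20 class cells, among genes of at least 20 CPM. Gap tests used log2(CPM + 1).

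The members and gene lists were chosen with earlier results of these data known. All 8 members are named in each class, up to 4 genes of smallest p per list, each receptor in its highest class, and the 3 genes most like a member; other cluster-leading genes identify clusters.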

Additional observations from a re-analysis of the deposited data

Results flagged for a closer look

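Some genotype ratios (K/B.g7 level over B.g7 level, with 1 library each) pointed in opposite directions at different ages, and in each case the difference was not tested, because there is 1 library per genotype and age. In fibroblast-like cells Cxcl14 was 0.871 at 3 weeks, 9.77 at 8 weeks and 1.88 at 25 weeks. The Cxcl13 ratio was 0.0832 at 3 weeks, 5.98 at 8 weeks and 0.0738 at 25 weeks. Ccl21a in the same cells went from 0.368 at 3 weeks to 4.67 at 8 weeks and 4.82 at 25 weeks. Cxcl12 went from 1.36 at 3 weeks and 1.83 at 8 weeks to 0.804 at 25 weeks, and Ackr3 from 1.56 and 1.83 to 0.938. The class ratios of the ligand Cxcl12 and its scavenging receptor Ackr3 thus lay on the same side of 1 at each age.

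In endothelial-like cells the Ackr3 ratio was 0.778 at 3 weeks and 1.36 at 8 weeks, and the Cxcl12 ratio was 1.42 at 8 weeks and 0.493 at 25 weeks. Neither opposite direction was seen in the cluster led by Flt1 alone. There the 3-week and 8-week levels of Ackr3 were 248 and 383 CPM in K/B.g7 and 352 and 423 CPM in B.g7. The 8-week and 25-week levels of Cxcl12 were 78.1 and 142 CPM in K/B.g7 and 94.7 and 218 CPM in B.g7, while 84.6% of the endothelial-like cells of B.g7 at 8 weeks lay in the other large cluster. Ccl21a in lymphatic endothelial-like cells was 0.915 at 3 weeks and 1.10 at 8 weeks. In mural-like cells, where Ccl21a was near the level outside lymphatic cells, its ratio was 0.130 at 3 weeks and 6.34 at 25 weeks.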

How the results depend on the processing

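Ages stand in for replicates, so the design allows few calls, and 1 library often decides one. Genes (members) called are given as main value, then alternatives. Fibroblast-like, genotype: 0 (0); DESeq2 42 (1), no filter 394 (3). Fibroblast-like, 8 against 3 weeks: 850 (2); no filter 2186 (4). Fibroblast-like, 25 against 3 weeks: 144 (1); DESeq2 540, no filter 1482 (4), doublets kept 59 (0). Endothelial-like, genotype: 10 (1); no replicate block 0 (0), DESeq2 0 members, no filter 123 (2), doublets kept 29 (2). Endothelial-like, 8 against 3 weeks: 164 (1); DESeq2 0 members, no filter 673 (3), doublets kept 2 members. Endothelial-like, 25 against 3 weeks: 0 (0); DESeq2 35 (1), no filter 236 (4), doublets kept 40 (1), at least 1000 UMIs 1 (1). Lymphatic, genotype: 13; no replicate block 0, DESeq2 0, no filter 40. Lymphatic, 8 against 3 weeks: 252; DESeq2 68. Lymphatic, 25 against 3 weeks: 226 (1); DESeq2 59 (0), no filter 343, doublets kept 2 members. Macrophage-like, genotype: 14 (1); no replicate block 0 (0), DESeq2 0 (0), no filter 47. Macrophage-like, 8 against 3 weeks: 307; DESeq2 138. Macrophage-like, 25 against 3 weeks: 61; no filter 107, at least 1000 UMIs 36. Mural-like, genotype: 152 (0); no replicate block 0, DESeq2 63, no filter 441 (1), doublets kept 1 member, at least 1000 UMIs 251. Mural-like, 8 against 3 weeks: 148 (0); DESeq2 96, no filter 422 (2), doublets kept 1 member, at least 1000 UMIs 290 (1). Mural-like, 25 against 3 weeks: 18 (0); DESeq2 42, no filter 182 (1), doublets kept 38 (1), at least 1000 UMIs 41. Mesothelial-like, genotype: 4 (0); no replicate block 0, DESeq2 17, no filter 263 (2), doublets kept 0, at least 1000 UMIs 0. T cell-like, genotype: 0 (0); DESeq2 1, no filter 84 (1), at least 1000 UMIs 28.

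Without the replicate block the fibroblast-like Cxcl13 difference was 0.47 in place of -1.25 and the lymphatic Ccl21a difference 0.024 in place of -0.0087 (log2), and the cause was not tested. Leaving out 1 library or age gave, for genes (members) called: fibroblast-like 0 to 67 (0 to 2) for genotype, 80 to 1040 (0 to 5) at 8 weeks and 0 to 444 (0 to 3) at 25 weeks; endothelial-like 8 to 84 (0 to 2; 24 genes without 3 weeks), 31 to 785 (0 to 2) and 0 to 30 (0 to 2); lymphatic 9 to 59, 52 to 519 (1 to 3) and 102 to 588 (0 to 2); macrophage-like 11 to 49 (0 to 1), 87 to 313 (0 to 2) and 12 to 326; mural-like 4 to 540 (0 to 1), 25 to 499 (0 to 3) and 10 to 105 (0 to 1). Log2 genotype differences ranged from -3.82 to 1.05 for fibroblast-like Cxcl13, -0.07 to 0.048 for lymphatic Ccl21a (0.048 without 3 weeks, 0.023 without 25 weeks), -0.13 to 0.52 for lymphatic Ackr3 and -0.62 to 0.22 for mural-like Cxcl12, whereas fibroblast-like Ccl19 stayed between 1.15 and 1.37 over its left-out ages. Without the Mmp3 and Lcn2 cluster the Ccl19 difference fell below that range, as given above.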
